A study of Homo sapiens with 12 samples.

Results

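The interaction of heat shock and wounding was measured here as the wounding effect after heat shock minus the wounding effect without it, for each of 18132 genes out of the 18132 measured. Each gene was represented by the probe set with a single gene symbol and the highest mean over the 12 arrays. The cells were A549, a human lung adenocarcinoma line with features of alveolar epithelium, grown as monolayers on plastic. There were 4 groups of 3 arrays: monolayers heat shocked for 2 h and then wounded for 4 h, heat shocked for 2 h, wounded for 4 h by repeated scratching, and untreated controls. All groups shared the cell line, the medium with fetal bovine serum and the uncoated plastic. RNA of each array, 100 ng, was hybridised to an Affymetrix PrimeView chip, and the values are log2 probe set levels. A wounded monolayer holds both cells at the scratch and intact cells behind it, so a small change in all cells and a large change in a few cannot be told apart. The labels do not give when the heat shocked monolayers were collected, so time after heat shock and the interaction cannot be told apart either. No label says whether a group's 3 arrays hold RNA of different cultures, and the tests measure the spread between arrays only, which may be technical.

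Heat shock unfolds proteins and releases the transcription factor HSF1 to bind heat shock elements in the promoters of chaperone genes. Scratching a monolayer tears cells and frees its edge, which sets off growth factor receptor and MAP kinase signalling, early transcription factors such as FOS and EGR1, and later genes for proteases, matrix and cell movement. On the log2 scale an interaction of 0 means that the fold changes multiply. A value above 0 means that the level after both treatments exceeded that product, and a value below 0 that it fell short of it.

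HSPA6, an inducible HSP70 that is nearly silent in unstressed cells, read 10.92, 10.96 and 10.40 on the heat shocked and wounded arrays and 10.34, 10.48 and 9.46 on the heat shocked arrays. It read 4.79, 4.86 and 4.18 on the wounded arrays and 4.48, 4.11 and 4.31 on the control arrays, so the heat shock labels held on all 12. Epithelial markers (KRT18, KRT8, CDH1, EPCAM and 3 others) had a median level of 9.64, 9.82, 9.77 and 9.83 in the heat shocked and wounded, heat shocked, wounded and control groups. The medians of 7 fibroblast markers were 3.87, 3.53, 3.82 and 3.79 in the same order, those of 7 endothelial markers 4.01, 3.90, 3.98 and 3.85, and those of 7 leukocyte markers 4.46, 4.50, 4.60 and 4.59. Of 8 alveolar type II markers, control means ran only between 2.26 and 7.65, with the surfactant gene SFTPA1 lowest. With both treatments, replicate 2 stood apart from the other arrays. Its interquartile range was 4.31, against 4.46 to 4.58 on the other 11. The medians by level and by class are given with and without it, and other values with all arrays unless stated.

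A single gene, FGF1, passed limma's test of the interaction at an adjusted p of 0.05, and it was above the sum (0.00552% of genes called higher, 0% called lower). Without adjustment, the 95% interval of the interaction lay wholly above 0 for 945 genes (5.21%) and wholly below 0 for 357 genes (1.97%). This split depended on the scaling: the counts above and below 0 were 544 and 567 after another round of quantile normalization, 705 and 487 after median centring and 495 and 624 after cyclic loess. For 12811 genes (70.7%) the interval lay within 0.5 of 0, which bounds the interaction to at most 1.41-fold in either direction. The remaining 4250 genes had an interval that held 0 but reached past that bound. With 3 arrays a group, a gene that was not called is not thereby shown to add. Over all 18132 genes the median interaction was 0.04 with an SD of 0.17, and 10957 genes were above 0. Of the measured genes, 4 had an interaction of more than 1 in size and 178 of more than 0.5.

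FGF1 encodes acidic fibroblast growth factor, a ligand of all classic FGF receptors that lacks a signal peptide and leaves stressed cells by an unconventional route. It read 5.28, 5.55 and 5.59 on the heat shocked and wounded arrays, against 3.67, 3.80 and 3.39 after heat shock, 3.57, 3.72 and 3.45 after wounding and 3.25, 3.38 and 3.40 in controls. All 3 arrays with both treatments were above every other array, while the heat shocked and wounded groups overlapped each other. Wounding raised FGF1 by 1.85 after heat shock (limma adjusted p = 1.51e-05), and its wounding effect without heat shock was 0.24 (adjusted p = 0.42). Heat shock without wounding gave 0.28 (adjusted p = 0.15). The interaction was 1.62 ± 0.16 (SE, n = 3 arrays a group), a 3.07-fold excess over the product of the single folds, with a 95% interval of 1.26 to 1.97 and a limma adjusted p of 0.00623. The other 3 FGF1 probe sets gave interactions of 0.32, 0.70 and 0.76, all above 0, and the mean of the 4 gave 0.85 with an adjusted p of 0.137. FGF1 kept its call when any single array was left out (adjusted p between 0.00442 and 0.0425). It lost the call when the 4 arrays with replicate number 1, 2 or 3 were left out together (interaction 1.79, 1.72 and 1.35, adjusted p 0.189, 0.269 and 0.299). With control replicate 3 left out, VASN passed beside it (1.09, adjusted p = 0.0341). The gene was dim in all 4 groups, with group means below 6. Its mean of 4.00 put it in the second of 5 level bins, a range in which RMA values understate fold changes.

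FGF1 has 4 start sites in RefSeq, on the minus strand of chromosome 5 (build GRCh38.p14), and its promoter windows are shown because it was the gene called. A window holds 250 bases before the start and 50 after it, 300 in all. They were searched on both strands for the core of a heat shock element, GAANNTTC, and for the AP-1 site, TGANTCA. The heat shock element letters were in 0 of the 4 FGF1 windows and in 6.77% of all 35116 windows. The AP-1 letters were in 1 of the 4 and in 7.71% of all windows. The windows farthest upstream and farthest downstream in the gene read, 5′ to 3′ and with the AP-1 match in capitals:
FGF1 chr5:142698021-142698320: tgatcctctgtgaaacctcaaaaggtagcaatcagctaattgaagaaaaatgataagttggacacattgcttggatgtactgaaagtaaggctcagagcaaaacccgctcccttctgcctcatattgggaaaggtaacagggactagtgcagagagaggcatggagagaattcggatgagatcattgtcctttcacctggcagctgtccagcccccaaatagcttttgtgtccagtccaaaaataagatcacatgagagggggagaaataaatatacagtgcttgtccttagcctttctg
FGF1 chr5:142644190-142644489: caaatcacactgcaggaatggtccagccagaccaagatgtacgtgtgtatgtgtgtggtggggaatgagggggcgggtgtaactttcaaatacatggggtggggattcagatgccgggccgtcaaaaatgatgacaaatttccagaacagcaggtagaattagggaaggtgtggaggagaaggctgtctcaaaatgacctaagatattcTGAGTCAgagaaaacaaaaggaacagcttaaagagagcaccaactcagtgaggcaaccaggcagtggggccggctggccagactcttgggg
The match in the second window lies at bases 210 to 216, at an offset of -41 from the start site. A match describes the letters of the window and was not tested as a bound site.

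**Figure D1:**
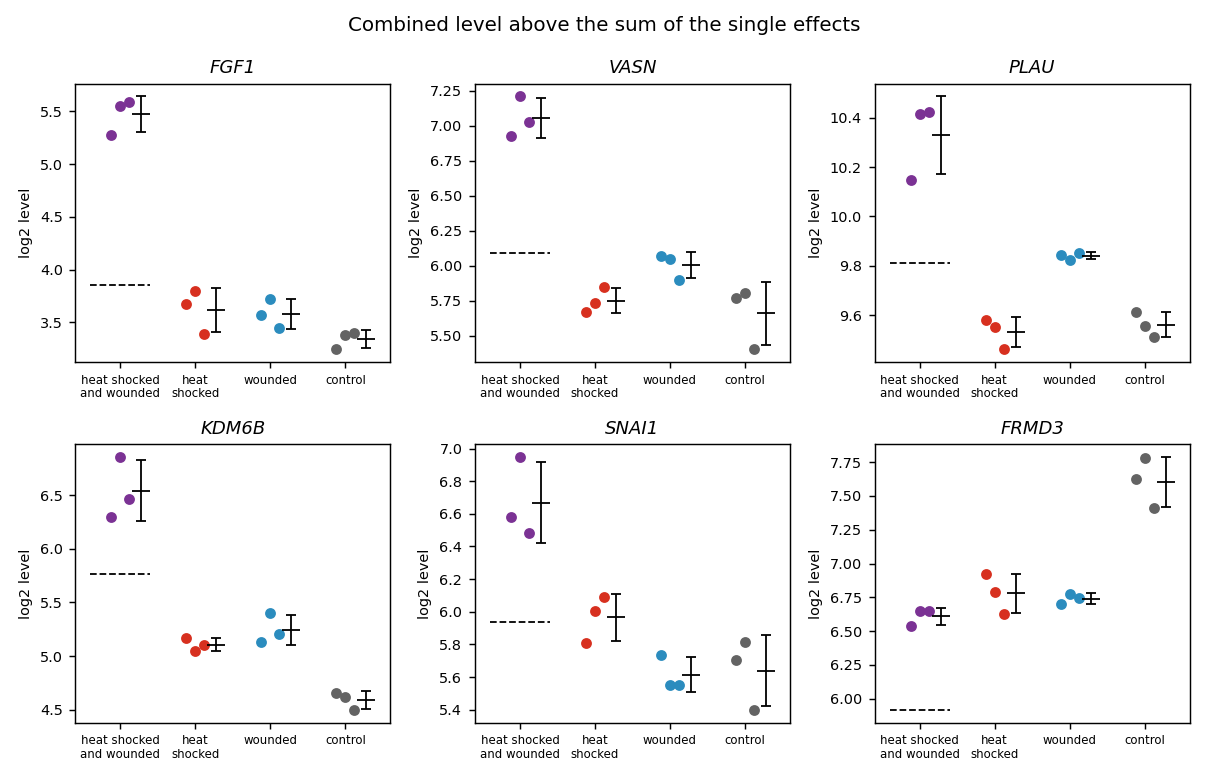
Log2 level on each array (points, y axis) in the heat shocked and wounded, heat shocked, wounded and control groups (x axis), with the mean and SD beside them (n = 3), for 6 genes whose level after both treatments was above the sum of the single effects, drawn as a dashed line. For FGF1 the 3 arrays with both treatments sit between 5.28 and 5.59, above the 9 others; for FRMD3 the dashed line lies below all arrays.

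Behind FGF1, the genes with the smallest p above 0, among those with a highest group mean of at least 6, were VASN, FRMD3, PLCXD1, PLAU, KDM6B, CRCT1, BCOR and THBD, with adjusted p between 0.281 and 0.469, so none passed.

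VASN, vasorin, is a membrane protein that traps TGF-beta. It read 6.92, 7.21 and 7.03 after both treatments, against 5.67, 5.73 and 5.85 after heat shock, 6.07, 6.05 and 5.90 after wounding and 5.77, 5.81 and 5.40 in controls. The heat shocked and wounded arrays were again above the 9 others. Wounding raised it by 1.31 after heat shock (adjusted p = 5.92e-05), and its effect alone was 0.34 (adjusted p = 0.148), which gave an interaction of 0.96 ± 0.16. KDM6B, the demethylase JMJD3 that removes methyl groups from histone H3 lysine 27, read 6.30, 6.85 and 6.47, against 5.17, 5.05 and 5.10 after heat shock, 5.13, 5.40 and 5.20 after wounding and 4.66, 4.61 and 4.50 in controls. It rose on wounding with heat shock and without it, by 1.43 and 0.66 (adjusted p 5.92e-05 and 0.00938), and its interaction was 0.78 ± 0.17. PLAU is urokinase, the protease that activates plasminogen at the edge of moving cells. PLAU read 10.15, 10.42 and 10.42 after both treatments, 9.58, 9.55 and 9.46 after heat shock, 9.84, 9.82 and 9.85 after wounding and 9.61, 9.56 and 9.51 in controls. Its wounding effect was 0.80 after heat shock (adjusted p = 0.000115) and 0.28 alone (adjusted p = 0.0827), with an interaction of 0.52 ± 0.11 and 0.35 and 0.11 in its dimmer probe sets. CRCT1, a cysteine-rich gene of the epidermal differentiation region, rose on wounding by 1.23 after heat shock and 0.56 alone, with an interaction of 0.67 ± 0.16.

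FRMD3, a FERM domain protein of the membrane skeleton, behaved the other way round. It read 6.54, 6.65 and 6.65 after both treatments, 6.92, 6.79 and 6.63 after heat shock and 6.70, 6.78 and 6.75 after wounding, against 7.62, 7.78 and 7.41 in controls. Each single treatment lowered it by nearly the full amount, by 0.82 for heat shock and 0.86 for wounding, and wounding after heat shock changed it by -0.17 (adjusted p = 0.418). Its interaction was 0.69 ± 0.14. BCOR, a corepressor of the Polycomb complexes, fell by 0.71 on wounding alone (adjusted p = 0.000851), and the effect after heat shock was -0.17 (adjusted p = 0.369). PLCXD1, a phospholipase-like protein, rose by 0.39 on wounding after heat shock (adjusted p = 0.0184), and its effect alone was -0.19 (adjusted p = 0.334). THBD, thrombomodulin, a receptor for thrombin, read 8.85, 8.76 and 8.89 after both treatments and 8.37, 8.38 and 8.33 after heat shock. It read 8.96, 8.90 and 8.92 after wounding and 8.83, 8.72 and 8.86 in controls, so only the heat shocked arrays were low.

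Below the sum, the smallest p under the same condition on level belonged to PMEPA1, LIPH, RASGRP1, ARHGAP12, SH3KBP1, YAP1, TOB1 and MTHFD1L, with adjusted p between 0.319 and 0.469. RASGRP1 and LIPH were raised by each treatment to about the same level, with little further rise after both, and the other 6 followed other courses.

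RASGRP1, an exchange factor that switches on RAS, had 6.44, 6.36 and 6.04 after both treatments, 6.39, 6.4998 and 5.89 after heat shock and 6.35, 6.38 and 6.05 after wounding, against 5.07, 5.32 and 5.22 in controls. The 3 treated groups overlapped and all lay above the controls. Heat shock raised it by 1.06 (adjusted p = 0.00089) and wounding by 1.05 (adjusted p = 0.00217), and wounding after heat shock by 0.02 (adjusted p = 0.97). The interaction was -1.03 ± 0.22, with -0.61, 0.00, -0.49 and -0.34 in its other probe sets. LIPH, a phospholipase that makes lysophosphatidic acid, followed the same course. It read 7.43, 7.14 and 7.32 after both treatments, 7.28, 7.15 and 7.24 after heat shock and 7.28, 7.20 and 7.17 after wounding, against 6.58, 6.54 and 6.64 in controls. Its interaction was -0.56 ± 0.11. PMEPA1, an inhibitor of TGF-beta signalling that TGF-beta itself induces, read 12.37, 12.39 and 12.44 after both treatments, 11.95, 11.97 and 11.86 after heat shock, 12.27, 12.31 and 12.13 after wounding and 11.26, 11.33 and 11.30 in controls. It rose by 0.48 on wounding after heat shock and by 0.94 without it (adjusted p 0.0011 and 1.7e-05), and its interaction of -0.46 ± 0.09 passed the test when the variance was allowed to depend on the level (adjusted p = 0.00934). PMEPA1 is near the top of the array's scale.

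SH3KBP1, an adaptor for receptor uptake, rose on wounding alone by 0.61 (adjusted p = 0.000402), and its effect after heat shock was 0.18 (adjusted p = 0.217). ARHGAP12 (a GTPase-activating protein) and MTHFD1L (a mitochondrial folate enzyme) changed on heat shock in wounded cells by -0.75 and -0.67 (adjusted p 7.4e-05 and 0.00023), and without wounding by -0.24 and -0.19 (adjusted p 0.063 and 0.16). TOB1, an antiproliferative protein of the BTG family, went lowest after both treatments. It read 10.16, 9.90 and 9.99 there, against 10.92, 11.07 and 11.001 after heat shock, 10.46, 10.61 and 10.48 after wounding and 11.08, 11.01 and 11.01 in controls. TOB1 fell on wounding by 0.98 after heat shock and by 0.52 without it, with an interaction of -0.46 ± 0.11. YAP1, the growth coactivator of the Hippo pathway, had an interaction of -0.45 ± 0.11, and all 8 of its probe sets were below 0.

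**Figure D2:**
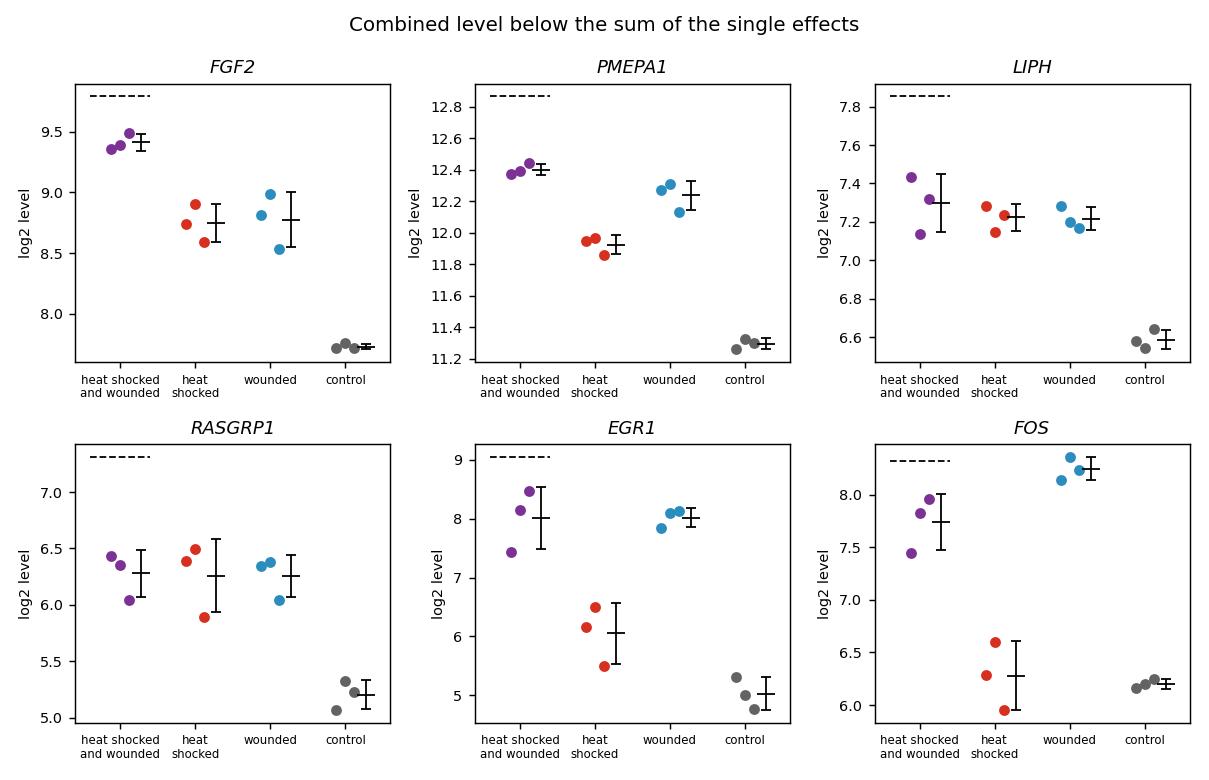
Log2 level on each array (points, y axis) in the heat shocked and wounded, heat shocked, wounded and control groups (x axis), with the mean and SD beside them (n = 3), for 6 genes whose level after both treatments was below the sum of the single effects, drawn as a dashed line. For RASGRP1 and LIPH the 3 treated groups overlap, while for FGF2 the arrays with both treatments, 9.36 to 9.49, are above all others and still below the line.

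To ask where the effects add, genes were classed by their average heat shock and average wounding effects, each taken over both states of the other treatment. These averages use the same arrays as the interaction, in contrasts whose errors are independent of its error at equal spread. A real interaction still enters them, because each average takes in the level after both treatments. FGF1 was classed as raised by both, though its single effects were 0.28 for heat shock and 0.24 for wounding (limma adjusted p 0.15 and 0.42). PLAU was too, with a heat shock effect alone of -0.03. A class therefore does not show that each treatment acted by itself. The average heat shock effect rose for 1622 genes (8.95%) and fell for 2706 (14.9%), and the average wounding effect rose for 780 (4.3%) and fell for 678 (3.74%). Both rose in 369 genes, both fell in 361, 67 rose with heat shock and fell with wounding, and 78 fell with heat shock and rose with wounding.

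Among the 369 genes raised by both, the sum of the single effects had a median of 0.92 and the level after both treatments stood 0.91 above control. Their interactions had a median of 0.02 and an SD of 0.29, with 196 above 0 and 173 below. Among the 361 genes lowered by both, the median interaction was -0.02 with an SD of 0.16, and 156 were above 0. The medians were -0.04 and -0.05 in the 2 classes with opposite effects, 0.00 in genes changed by heat shock only in either direction, 0.03 in those raised by wounding only and 0.00 in those lowered by wounding only. In the 13221 genes with neither average effect called it was 0.05. Without replicate 2 of the combined treatment the median was -0.02 in genes raised by both and 0.02 in those lowered by both. It was then -0.01 where heat shock raised and wounding lowered, and -0.04 in the reverse class. In genes changed by heat shock only it was 0.01 (up) and 0.02 (down), and by wounding only 0.02 (up) and 0.03 (down). With neither called it was 0.04. The spread was widest in the genes raised by both, where 56.1% of intervals lay within 0.5 of 0, against 79.5% in the genes lowered by both.

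Among genes with a highest group mean of at least 6, the largest shared rises were in MMP1, MMP10, KANK4 and ARL14. MMP1 is interstitial collagenase and MMP10 is stromelysin 2, both secreted proteases of migrating epithelium. MMP1 read 7.24, 7.22 and 7.996 after both treatments, 5.22, 5.11 and 5.05 after heat shock, 5.41, 5.28 and 5.28 after wounding and 3.68, 3.27 and 3.61 in controls. Wounding raised it by 2.36 after heat shock and by 1.80 alone, and its interaction was 0.56 ± 0.25 (adjusted p = 0.683), with 0.00 in a second probe set. MMP10 read 6.96, 7.15 and 7.55 after both treatments, 5.17, 5.24 and 4.49 after heat shock, 5.34, 5.31 and 5.16 after wounding and 3.48, 3.16 and 3.51 in controls, with an interaction of 0.37 ± 0.27. In both genes the groups formed 3 steps, with the 2 single treatments on the middle one. KANK4, a regulator of actin and microtubule anchoring, had an interaction of 0.24 ± 0.45, with 0.73 ± 0.30 in a second, dimmer probe set. Its wounded arrays lay far apart, at 4.74, 4.67 and 3.29. ARL14, a small GTPase of the ARF family, read 6.97, 6.90 and 6.86 after both treatments, against 5.90, 5.97 and 5.24 after heat shock, 5.296, 5.298 and 5.34 after wounding and 3.51, 3.32 and 3.64 in controls, with an interaction of -0.61 ± 0.22 (adjusted p = 0.608).

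Under the same condition on level, the largest shared falls were in EDN2, PKDCC, CAVIN2 and SARM1. EDN2, the vasoactive peptide endothelin 2, read 7.35, 6.92 and 6.64 after both treatments, 8.16, 7.99 and 8.09 after heat shock, 7.93, 7.70 and 8.03 after wounding and 9.48, 9.19 and 9.35 in controls. The arrays with both treatments were the lowest and those of the single treatments overlapped each other. Its interaction was 0.34 ± 0.21. PKDCC, a secreted tyrosine kinase, stood at -0.10 ± 0.13, CAVIN2, a coat protein of caveolae, at -0.44 ± 0.20, and SARM1, an NAD-cleaving enzyme known from axon loss, at 0.05 ± 0.17. Where the average effects opposed each other, 8 genes with the largest effects were taken under that condition on level. They had interactions between -0.28 and 0.38, with intervals that all held 0. Without the condition, 3 genes that rose with heat shock and fell with wounding had both average effects of at least 0.5. Of these, 1 had an interval below 0. AVPI1, OSBPL3, NAP1L2 and CYTH3 (a vasopressin-induced gene, an oxysterol-binding protein, a nucleosome assembly protein and an ARF exchange factor) rose with heat shock and fell with wounding. Their interactions were 0.13 ± 0.17, -0.04 ± 0.13, 0.08 ± 0.17 and -0.28 ± 0.13. MAML3, CLK1, PRR5L and GKN2 (a Notch coactivator, a kinase of splicing factors, a partner of mTOR and a gastrokine) fell with heat shock and rose with wounding. Their interactions were -0.08 ± 0.17, -0.06 ± 0.17, 0.38 ± 0.21 and 0.01 ± 0.19.

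**Figure D3:**
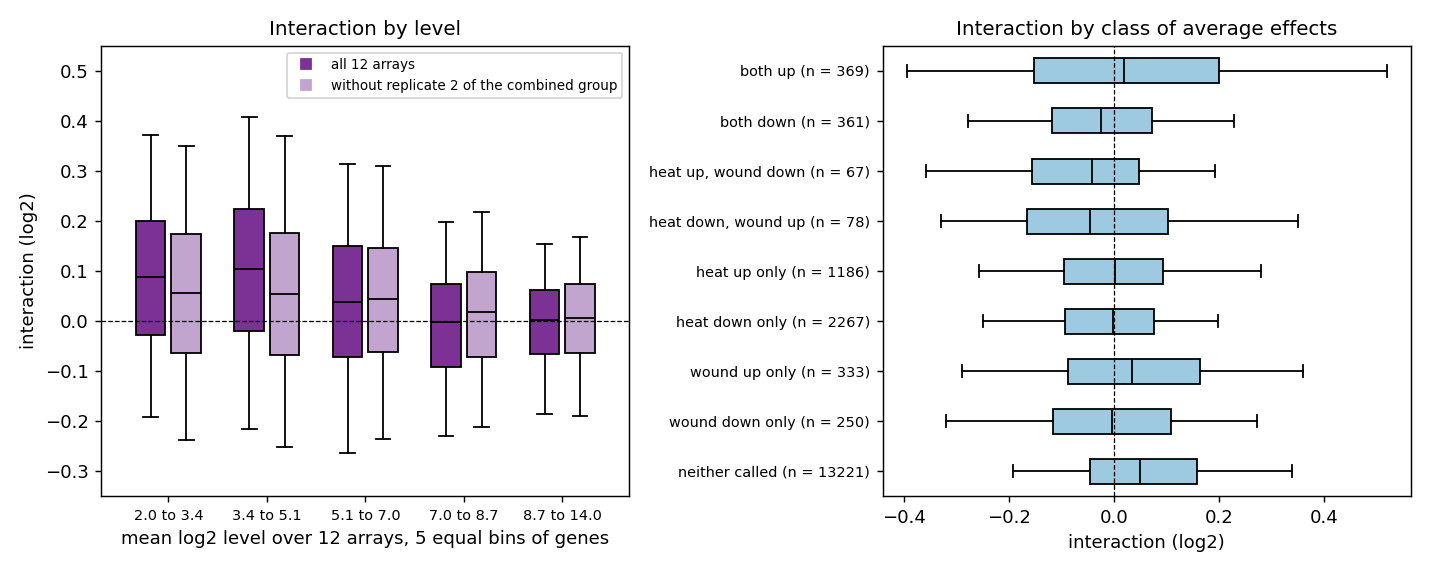
Left, the interaction (log2, y axis) in 5 equal bins of genes by mean log2 level over 12 arrays (x axis), with all arrays and without replicate 2 of the combined treatment. Right, the interaction (x axis) by class of average effects. Boxes give the median and quartiles over genes and whiskers the 5th and 95th percentiles; medians with all arrays are 0.09 and 0.10 in the 2 dimmest bins and 0.00 in the 2 brightest.

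The interaction depended on the level of the gene. From the dimmest to the brightest bin of about 3626 genes, its median was 0.09, 0.10, 0.04, 0.00 and 0.00, and its SD 0.17, 0.19, 0.18, 0.14 and 0.11. The share of genes whose interval lay within 0.5 of 0 was 58.2% in the dimmest bin, 47.2% in the next and 94.7% in the brightest. Replicate 2 of the combined treatment moved with this pattern. Its genes in the 2 dimmest bins lay a median of 0.06 and 0.09 above their group mean, and replicate 3 of the same group lay at -0.05 and -0.07. Without replicate 2 the medians were 0.06, 0.06, 0.04, 0.02 and 0.01. The median over all genes was 0.005 after another round of quantile normalization and -0.004 after cyclic loess. The part of that array in the pattern was not tested further.

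The wounding effects after heat shock and without it come from separate arrays and can be set side by side. After heat shock, 492 genes rose (2.71%) and 287 fell (1.58%), and without it 411 rose (2.27%) and 237 fell (1.31%). Pearson's r of the 2 effects was 0.587 across the 18132 genes, which is a description across genes and not across replicates. Of the 411 genes that rose on wounding alone, 404 had an effect above 0 after heat shock, with a median of 0.45 after heat shock and 0.55 alone. Of the 492 that rose after heat shock, 450 had an effect above 0 alone, with medians of 0.51 after heat shock and 0.39 alone. In each direction the effect by which the genes were chosen was the larger one, which choosing on it brings about. The heat shock effects in wounded and unwounded cells had an r of 0.771.

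**Figure D4:**
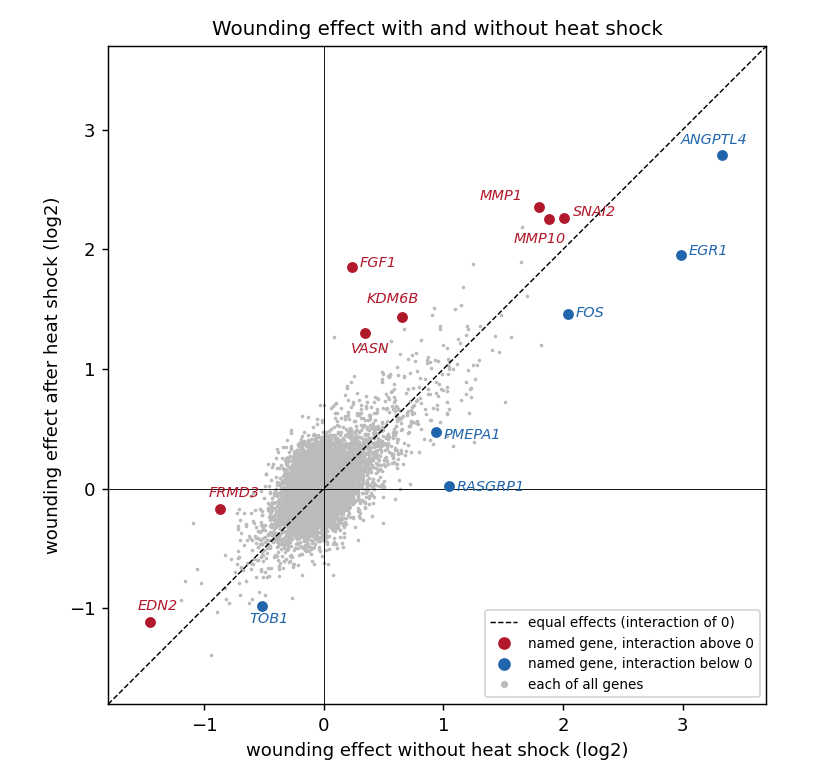
Wounding effect after heat shock (log2, y axis) against the wounding effect without heat shock (log2, x axis), 1 grey point for each of 18132 genes, with the dashed line marking equal effects. Named genes above the line have an interaction above 0 and those below it an interaction below 0; FGF1 lies at 1.85 after heat shock and 0.24 without it, the farthest above the line among the named genes.

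By function, 42 lists of genes were described by their counts, medians and intervals, against a median of 0.04 over all genes. For lists of bright genes the reference is lower, since the median was 0.00 in the 2 brightest level bins. Values are of the probe set with the highest mean, and other probe sets of a gene differed in places. No list member other than FGF1 passed the adjusted test, and those named below have 95% intervals that leave out 0, except HSPA6, DNAJB1, SERPINH1, JUN, SNAI2, IL11, ANGPTL4, GAPDH and ACTB.

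Chaperone genes, the classic targets of HSF1, had an SD of 0.19, against 0.17 over all genes and 0.11 in the brightest level bin. Of 40 heat shock proteins and cochaperones measured, 16 had an interaction above 0 and the median was -0.03. The intervals of 27 (67.5%) lay within 0.5 of 0, against 70.7% of all genes and 94.7% in the brightest level bin, where the list's median level of 10.5 lies. HSPA6 stood at 0.36 ± 0.36, so its interval of -0.43 to 1.15 leaves room for a change either way. DNAJB1, the main HSP40, read 12.53, 12.53 and 11.96 after both treatments and 12.41, 12.37 and 12.08 after heat shock, against 10.47, 10.58 and 10.15 after wounding and 10.44, 10.37 and 10.11 in controls. Its interaction was -0.04 ± 0.23. SERPINH1, the collagen chaperone HSP47, gave -0.06 ± 0.16. The 3 members with an interval off 0 were DNAJB5 at 0.52, HSPA13 at -0.32 and HSPB1 at -0.33. HSPB1, the small heat shock protein HSP27, was high in both heat shocked groups and was named after its values were seen. All 8 subunits of the TRiC chaperonin, which folds actin and tubulin, were within 0.5 of 0.

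Early transcription factors held some of the lowest interactions, though not as a whole. Of 23 EGR, NR4A, KLF and other early factors, 12 were above 0 with a median of 0.00, while 5 had intervals below 0 (21.7%, against 1.97% of all genes) and 0 above it (against 5.21%). Of 13 AP-1 and ATF factors, 5 were above 0 with a median of -0.05, and 2 had intervals below 0 and 0 above it. EGR1 read 7.43, 8.14 and 8.47 after both treatments, 6.17, 6.51 and 5.49 after heat shock, 7.84, 8.09 and 8.13 after wounding and 5.32, 5.01 and 4.76 in controls. Wounding brought it to about the same level with heat shock as without it, from a heat shocked level already above control. EGR1 rose on wounding by 1.96 after heat shock and 2.99 alone (adjusted p 0.00122 and 8.19e-05), with an interaction of -1.03 ± 0.38 and values of 0.16 to 0.27 in its 3 dimmest probe sets. FOS read 7.45, 7.83 and 7.96 after both treatments, 6.29, 6.60 and 5.95 after heat shock, 8.14, 8.36 and 8.24 after wounding and 6.16, 6.20 and 6.25 in controls, with an interaction of -0.58 ± 0.22. The 2 wounded groups did not overlap, and the wounded cells without heat shock were higher. ATF3, a stress-induced repressor, stood at -0.47 ± 0.17, and JUN, the partner of FOS, at -0.22 ± 0.18 with an interval that holds 0. NR4A2, an orphan nuclear receptor, read 6.46, 6.33 and 6.30 after both treatments, 6.32, 6.15 and 6.48 after heat shock, 7.07, 6.90 and 7.24 after wounding and 6.48, 6.52 and 6.04 in controls. Only the wounded arrays were high, and its interaction was -0.68 ± 0.19. Its relative NR4A1 stood at -0.55 ± 0.18. KLF4 and KLF5, zinc finger factors of epithelia named after their values were seen, had -0.41 and -0.54.

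Growth factor ligands went both ways. FGF2, basic fibroblast growth factor, had the opposite sign to FGF1. FGF2 read 9.36, 9.39 and 9.49 after both treatments, 8.74, 8.90 and 8.59 after heat shock and 8.81, 8.98 and 8.53 after wounding, against 7.72, 7.76 and 7.72 in controls. It rose on wounding by 0.67 after heat shock and by 1.04 alone (adjusted p 0.0036 and 0.000176), with an interaction of -0.38 ± 0.15 and -0.30 and -0.53 in its other probe sets. Of 21 FGFs and receptors measured, 14 were above 0 with a median of 0.06, and most were dim. FGFR2, a receptor for FGF1, stood at 0.40 ± 0.14 at a level of about 4, and its dimmer probe sets ran from -0.24 to 0.36. Among EGF receptor ligands, HBEGF read 7.59, 7.84 and 7.79 after both treatments, 7.05, 7.19 and 6.77 after heat shock, 7.44, 7.497 and 7.60 after wounding and 7.40, 7.07 and 7.46 in controls. HBEGF rose on wounding by 0.74 after heat shock (adjusted p = 0.00431), its effect alone was 0.20 (adjusted p = 0.549), and its interaction was 0.54 ± 0.17. TGFA, named after its values were seen, stood at 0.37, and EREG, another ligand, at -0.49 ± 0.17. The dimmer probe sets gave 0.11 in HBEGF, 0.00, 0.11 and 0.21 in TGFA, and -0.38, -0.52 and -0.03 in EREG.

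In the TGF-beta, BMP and activin pathway, 4 of 27 members had intervals above 0 (14.8%, against 5.21% of all genes) and 2 below (7.41%, against 1.97%), around a median of -0.03. TGFBR3, the coreceptor betaglycan, had 5.37, 5.21 and 5.32 after both treatments, 5.98, 6.15 and 6.09 after heat shock, 5.46, 5.58 and 5.81 after wounding and 6.67, 6.77 and 6.89 in controls. It fell with either treatment and lay lowest after both, with an interaction of 0.39 ± 0.13. The ligand genes INHBA, BMP2 and TGFB2 stood at 0.39, 0.38 and 0.23, and the repressors of SMAD signalling TGIF1 and SKIL at -0.32 and -0.59. INHBA, BMP2, TGFB2 and SKIL were named after their values were seen. Of 16 MAP kinase phosphatases and Sprouty family members, which dampen growth factor signals, DUSP10 was at 0.61 ± 0.16 and SPRY4 at 0.31 ± 0.12. SPRED1, named after its value was seen, was at -0.29. The dimmer probe sets gave 0.06, 0.03 and 0.06 in DUSP10 and -0.28 and -0.06 in SPRY4, and those of SPRED1 were all below 0.

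Proteases had the highest median among the lists of more than 10 members. Of 28 matrix metalloproteinases and members of the plasminogen system, 23 were above 0, with a median of 0.15, against 60.4% above 0 over all genes. PLAU and MMP1 had intervals above 0, and ADAM17, the sheddase that frees EGF receptor ligands, was at -0.26 ± 0.09. MMP7, matrilysin, was at -0.36 and was named after its value was seen. Extracellular matrix genes lay lower, with 8 of 26 above 0 and a median of -0.08. THBS1, thrombospondin, read 9.88, 10.09 and 9.71 after both treatments, 9.82, 9.94 and 9.69 after heat shock and 9.69, 9.80 and 9.50 after wounding, against 9.17, 9.17 and 9.29 in controls. The treated groups overlapped above the controls, and the interaction was -0.38 ± 0.15. LAMB1, a laminin chain, stood at -0.27, and COL7A1, P4HA1 and LAMC1 (anchoring fibril collagen, a collagen-modifying enzyme and a laminin chain, named after their values were seen) at -0.33, -0.25 and 0.19.

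Of 19 genes of the epithelial to mesenchymal transition, SNAI1 was above 0 and CLDN1 below. SNAI1, a repressor of cadherin genes, read 6.58, 6.95 and 6.48 after both treatments, 5.81, 6.004 and 6.09 after heat shock, 5.74, 5.55 and 5.55 after wounding and 5.71, 5.81 and 5.40 in controls. Wounding raised it by 0.70 after heat shock (adjusted p = 0.00951), its effect alone was -0.03 (adjusted p = 0.968), and the interaction was 0.73 ± 0.19. Its relative SNAI2 rose with each treatment and gave 0.26 ± 0.30, with an interval that holds 0. CLDN1, a tight junction protein, fell on wounding after heat shock by 0.61 (adjusted p = 0.000651), its effect alone was -0.28 (adjusted p = 0.0767), and its interaction was -0.32 ± 0.11. Among 24 cytokines and chemokines, CCL2, which draws monocytes, rose on wounding by 1.13 after heat shock and 0.64 alone, with an interaction of 0.49 ± 0.15. IL11, a fibrogenic cytokine, read 10.03, 10.38 and 9.92 after both treatments and 9.07, 9.16 and 8.80 after heat shock. It read 8.70, 8.82 and 8.63 after wounding and 7.85, 7.70 and 7.98 in controls. Its interaction of 0.23 ± 0.18 had an interval that holds 0, and its dimmer probe sets gave 0.37 ± 0.16 and 0.62 ± 0.17. Of 17 NF-kappaB subunits and feedback genes, 4 were above 0 and the median was -0.10, with NFKBIZ at -0.37 and the adhesion receptor ICAM1 at -0.41. ANGPTL4, a lipase inhibitor with the highest wounding effect named here, rose on wounding by 2.79 after heat shock and 3.33 alone, and its interval of -1.10 to 0.01 just held 0.

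Of 30 G1/S and replication genes, 20 were above 0 with a median of 0.03, against 60.4% and 0.04 over all genes. In the brightest level bin, where the list's median level of 9.17 lies, 51.1% of genes were above 0 with a median of 0.00. E2F2, an S phase transcription factor, and MCM10, a replication initiation factor, stood at 0.46 ± 0.17 and 0.30 ± 0.12. The dimmer probe sets gave -0.22 in E2F2 and -0.13 and 0.13 in MCM10. E2F2 read 6.04, 6.28 and 5.97 after both treatments, 6.10, 6.23 and 6.56 after heat shock and 6.03, 6.17 and 6.32 after wounding, against 6.75, 6.89 and 6.87 in controls. The treated groups overlapped below the controls. Of 28 G2/M and mitosis genes, 6 were above 0 with a median of -0.07, and the difference between the 2 lists was not tested. NUSAP1, KIF20A and KIF23, all needed for spindles or cytokinesis, stood at -0.32, -0.30 and -0.26. KIF23 was named after its value was seen. BTG1, an antiproliferative gene like TOB1, was at -0.39 ± 0.11.

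Of 22 NRF2 targets and glutathione genes, 4 were above 0, with a median of -0.07. GCLC and GCLM are the catalytic and modifier subunits of glutamate-cysteine ligase, which makes glutathione. GCLC read 8.93, 8.95 and 9.03 after both treatments, against 9.56, 9.56 and 9.71 after heat shock, 9.36, 9.51 and 9.57 after wounding and 9.61, 9.76 and 9.71 in controls. GCLM read 11.28, 11.28 and 11.26 after both treatments, 11.54, 11.55 and 11.65 after heat shock, 11.59, 11.69 and 11.62 after wounding and 11.57, 11.53 and 11.67 in controls. In both genes the arrays with both treatments were the lowest, and in GCLC the wounded arrays also lay below the controls. The 2 genes had interactions of -0.42 ± 0.11 and -0.35 ± 0.09 (adjusted p 0.469 each). The cystine transporter SLC7A11, named after its value was seen, stood at -0.31. In sterol and fatty acid synthesis, INSIG1, a brake on sterol synthesis, stood at 0.46 ± 0.16, ELOVL6, a fatty acid elongase, at 0.22 and NSDHL, a sterol enzyme named after its value was seen, at 0.25. Of 26 glycolysis and hypoxia genes, 7 were above 0, with KDM3A, a histone demethylase induced by hypoxia, at -0.29 and PFKFB4, a regulator of glycolysis, at -0.46. In the Wnt list of 24, AXIN2, a feedback inhibitor, and LGR4, an R-spondin receptor, stood at -0.62 ± 0.25 and -0.32 ± 0.15.

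Every measured gene of the basal machinery lists and of the metallothionein and zinc list was bounded. All 25 proteasome subunits, all 30 ribosomal proteins, all 27 mitochondrial ribosomal proteins, all 23 oxidative phosphorylation genes and all 11 metallothionein and zinc genes had intervals within 0.5 of 0, against 94.7% of all genes in the brightest bin. Their medians were 0.04, 0.03, 0.01, 0.06 and 0.04. Control means of the metallothionein and zinc genes ran from 2.89 to 12.6, so the brightest bin is not the level of all of them. Of 26 splicing factors and kinases, 5 were above 0 with a median of -0.08, 24 were bounded, and SRPK1, a kinase of SR proteins, stood at -0.25. GAPDH read between 13.49 and 13.58 on all 12 arrays and gave 0.02 ± 0.08, and ACTB gave -0.12 ± 0.13. The type II and fibroblast markers, most of them dim, had medians of 0.20 and 0.19. Of the 15 in both lists, 3 had intervals above 0 and 0 below. Of all genes, 7.75% and 9.40% had intervals above 0 in the 2 dimmest bins. In the next bin, where the type II list's median level of 5.13 lies, the share was 5.49%. The fibroblast marker with an interval above 0 was COL3A1, at 0.51, and its dimmer probe sets ran from -0.15 to 0.08.

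**Figure D5:**
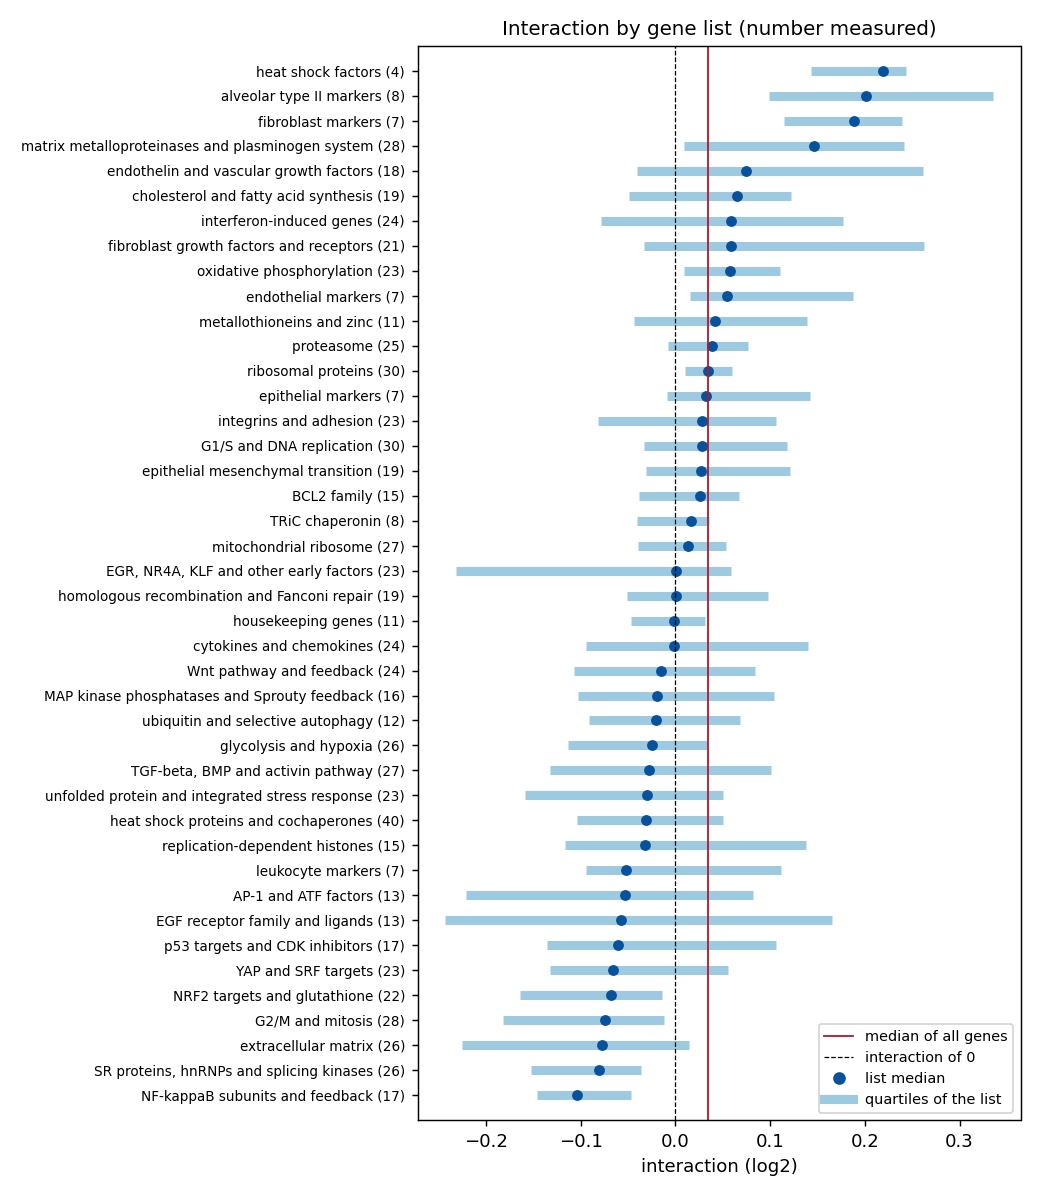
Median (dots) and quartiles (bars) of the interaction (log2, x axis) over the measured members of 42 gene lists (y axis, number measured in parentheses), with the median of all genes, 0.04, as a solid line. Proteases lie at 0.15, matrix genes at -0.08 and NF-kappaB genes at -0.10, and the list quartiles of most lists take in both 0 and the solid line.

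The scale decides what counts as a sum. Added as linear levels instead of folds, 281 of the 369 genes with both average effects up lay above the sum, against 196 on the log2 scale. FGF2 changed side: its linear level was 681 after both treatments, 429 after heat shock, 438 after wounding and 213 in controls, which exceeds the linear sum by 25.9. ARL14 likewise stood 39.6 above the linear sum. FGF1 was above the sum on either scale, at 44.5 after both treatments, 12.3 after heat shock, 11.96 after wounding and 10.2 in controls. RASGRP1 was below it on either scale, at 77.7, 76.6, 76.4 and 36.9 in the same order of groups, and so was EGR1, by -35.1.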

How the data were processed

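RNA of A549 monolayers was measured on 12 1-colour arrays. The deposited log2 values are RMA output; the submitters' processing notes name Affymetrix Expression Console, with no version given in the sources used here. RMA corrects background, sets arrays to 1 distribution and summarises probes. Of 49293 probe sets, 44987 carried 1 symbol in the platform annotation, and 1 was dropped for an empty cell; 11734 of 18132 genes had several. The fit used limma 3.58.1 in R 4.3.3, with 4 group means over all 12 arrays, moderated variances and Benjamini-Hochberg adjustment over all genes. The threshold was 0.05, intervals were 95%, and sums are on the log2 scale. Genes named are the called gene, up to 2 per list and a short fixed list, in part. Added to these were the 8 smallest p on each side and 4 per class, at a highest group mean of 6 or more. The genes, lists and tests were chosen with earlier results of these data known. Of 18 same-numbered array pairs, 6 correlated above 0.1 (r between -0.187 and 0.234), so numbers were not used as pairs. The test was tested on simulated data. Alternatives, 26 in all, covered normalization, probe set choice, level filter, variance model, weights, blocks and left-out arrays. The number of arrays limits the precision.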

Additional observations from a re-analysis of the deposited data

Results flagged for a closer look

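FGF1 stood out because its wounding effect differed with and without heat shock in a direct test of the difference. The effect was 1.85 after heat shock and 0.24 without it, and the difference, 1.62, had a limma adjusted p of 0.00623 (n = 3 arrays a group). All 3 heat shocked and wounded arrays lay above the other 9.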

How the results depend on the processing

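FGF1 was above the sum under every alternative that measured it. The number of genes called for the interaction was 1 with all arrays and 0 with a filter on levels of at least 6, which removes FGF1, 0 with the mean of all probe sets (FGF1 at 0.85, limma adjusted p = 0.137), and 2 with a variance trend. It ran from 0 to 2 with arrays left out, where FGF1 stood between 1.35 and 1.79 (adjusted p between 0.00442 and 0.299), with fewer samples in each fit. Numbers were not used as pairs (5 of 12 arrays correlated best with their own number). With a replicate block 1 gene was called, FGF1, with a limma adjusted p of 0.0144. The array weights were 1.78 to 2.25 on the replicate 1 arrays and 0.36 to 1.21 on the others, so they differed by number. With arrays left out, the genes called for the average heat shock effect ran from 1723 to 4437 and for the average wounding effect from 497 to 1430. Intervals within 0.5 of 0 numbered 8335 under the level filter, where fewer genes were tested, and 7646 to 13250 with arrays left out. Intervals above 0 numbered 544 after quantile normalization, 495 after cyclic loess, 322 under the level filter, 1571 with array weights and 560 to 1327 with arrays left out. Intervals below 0 numbered 567, 624 and 743 after quantile normalization, cyclic loess and array weights, and 196 to 712 with arrays left out. The median of all genes was 0.00465 after quantile normalization, 0.0115 after median centring, -0.00369 after cyclic loess, 0.00527 under the level filter and 0.0255 to 0.0510 with arrays left out. The median of genes raised by both ran from -0.0711 to 0.0498, and of those that fell with heat shock and rose with wounding from -0.131 to -0.00405, with arrays left out. Of 42 list medians, 34 of 1090 values moved by more than 1 SD.

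Among 101 genes, 83 kept the sign of their interaction under all alternatives that measured them, and 18 did not, none of them called. The sign turned with the mean of all probe sets in ADAM17 (0.0121), PKDCC (0.0871), SPRY4 (-0.0105) and NAP1L2 (-0.0926). It turned with the most variable probe set in ADAM17 (0.38), TGFB2 (-0.0686), ELOVL6 (-0.0517) and NAP1L2 (-0.247). Array weights turned KANK4 (-0.19), OSBPL3 (0.0941) and GKN2 (-0.0526). Quantile normalization and cyclic loess turned SARM1 (-0.0637 and -0.0251), median centring GAPDH (-0.0023) and GKN2 (-0.0153), and cyclic loess also GKN2 (-0.0167). With arrays left out, MMP10 ran from -0.15 to 0.67, KANK4 from -0.42 to 0.66, SARM1 from -0.0378 to 0.19, AVPI1 from -0.00468 to 0.30, OSBPL3 from -0.20 to 0.0388, MAML3 from -0.28 to 0.0711, CLK1 from -0.17 to 0.0821, DNAJB1 from -0.17 to 0.15, SERPINH1 from -0.14 to 0.0749, SNAI2 from -0.15 to 0.63, NAP1L2 from -0.0918 to 0.268, GKN2 from -0.215 to 0.212 and GAPDH from -0.0188 to 0.0442. For the probe set choices the cause was not tested. Low signal limits the dim genes, for which the intervals are widest.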

Other observations

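VLDLR, a lipoprotein receptor counted in the integrated stress response list, read 7.71, 7.08 and 7.53 after both treatments, 8.19, 8.07 and 8.22 after heat shock, 8.25, 8.20 and 8.11 after wounding and 8.38, 8.50 and 8.21 in controls. Only the arrays with both treatments were low, and the interaction was -0.54 ± 0.19 (limma adjusted p = 0.608). In the list of integrins and adhesion genes, 14 of 23 were above 0 with a median of 0.03. Its member ITGB8, an integrin subunit that activates TGF-beta, read 4.12, 3.37 and 3.33 after both treatments, 4.65, 4.72 and 4.20 after heat shock, 3.13, 3.06 and 3.03 after wounding and 3.37, 3.29 and 3.36 in controls, with an interaction of -0.65 ± 0.26. It was dim, and 1 array of the heat shocked and wounded group lay apart from the other 2. ASNS, asparagine synthetase, of the same list as VLDLR, stood at -0.22 ± 0.09.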
